A study of Mus musculus with 6 samples.

Results

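The genes described here were the C-type lectins, Siglecs and Fc-gamma receptors, chosen by symbol as every row of the deposited table that begins with *Clec* and a digit, *Cd209*, *Siglec* or *Fcgr*. This gave 50 of 17854 genes, of which 38 had enough counts to be tested and 12 did not. C-type lectins are proteins with a fold that often binds sugars, and many of them act on myeloid cells as receptors for microbes, damaged cells or glycans. Siglecs bind sialic acid, the sugar that caps many glycans of the cell surface, and mostly hold immune cells back. Fc-gamma receptors bind the constant part of IgG and let phagocytes respond to immune complexes. Many activating members signal to the kinase Syk, often through the adaptors Fcer1g and Tyrobp, and inhibitory members carry tyrosine motifs that recruit phosphatases such as Ptpn6. The symbols also cover proteins of other kinds, such as secreted lectins of cartilage and bone matrix, the neonatal Fc receptor *Fcgrt* and the endosomal protein *Clec16a*.

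Bulk RNA sequencing was carried out on Tomato+ cells sorted from the knee articular cartilage of male C57BL/6 mice, in 2 groups of 3 libraries. In the MSC-derived group, the host mice had osteoarthritis made by cutting the anterior cruciate ligament, and their joints had received Tomato+ mesenchymal stromal cells (MSCs) sorted from inguinal fat of *Prrx1-Cre; R26 tdTomato* mice and not expanded in culture. The endogenous group consisted of the joint's own Tomato+ cells from *Prrx1-Cre; R26 tdTomato* mice matched for age and sex, without injected cells. Both groups were sorted for the same reporter, in which *Prrx1* expression in early limb mesoderm permanently marks the descendants, and whether cells without it entered the libraries was not tested. The tissue the cells came from, the injection and the osteoarthritic joint all go with the group and cannot be told apart, and no surgery is stated for the endogenous group. The age at sorting was not given in the sources used here. Sorting was on Tomato, and 3 mice were used per group, with no statement that each library came from 1 mouse, so that p-values measure the spread between libraries.

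The libraries held 22060628 to 24881796 expected counts each, and 3 counts, the floor used for an undetected gene, corresponded to 0.121 to 0.136 CPM (counts scaled to library size) in single libraries. The labels called all cells chondrocytes. All 10 chondrocyte markers tested were lower in the MSC-derived group, with a summed level of 435 to 447 TPM (a level per transcript length, scaled to the same total in every library) against 22973 to 24836 TPM in the endogenous group, and none was at 0. In contrast, all 10 leukocyte markers were higher in the MSC-derived group (5320.2 to 5362 against 443.7 to 487 TPM), as were all 14 macrophage markers (26407 to 27166 against 745 to 889.6 TPM) and all 12 neutrophil markers (147549 to 156237 against 8245 to 11595 TPM), and none of these was at 0 in all libraries of a group. The members called higher below were thus higher in the same libraries as these blood cell markers, and the part of such cells in each result was not tested. In bulk RNA, fewer cells of a type and less RNA per cell cannot be told apart. Endogenous replicate 1 stood apart, with 3459 genes at 0 against 1338 and 1395 in its group and a Spearman correlation of at most 0.957 with them, whereas the other endogenous libraries reached 0.995.

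Among the 38 members tested, 31 were higher in the MSC-derived cells (81.6%), 4 were lower (10.5%) and 3 passed in neither direction, by edgeR's quasi-likelihood test at an adjusted p of 0.05. Over all 14289 genes tested, 31.3% were higher and 30.3% were lower. A difference of at least 1 on the log2 scale was found in 30 of the 31 higher members and all 4 lower ones, against 19.3% and 21.9% of all genes. The median log2 fold change was 4.06 over the members tested, or 3.76 with the 2 members at 0 in every endogenous library set to their bound, and 0.05 over all genes tested. In CPM with the scaling of the test, every MSC-derived library lay above every endogenous library in 32 members and below in 5, against 38.2% and 34.1% of all genes. When endogenous replicate 1 was left out, 35 members were higher and 6 were lower of the 41 then tested. The 4 lower members were *Clec3a*, *Clec11a*, *Clec3b* and *Clec14a*, and the 3 without a call were *Cd209c*, *Clec1a* and *Clec9a*.

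The summed level of all 50 members was similar in size in both groups, at 3373 to 3452 TPM in the MSC-derived libraries and 2559.8 to 3099 TPM in the endogenous ones, but it was made up of different genes. In the MSC-derived group, *Fcgr3*, *Fcgrt*, *Clec4b1*, *Clec12a* and *Clec4a2* held 58.8 to 59.5% of the sum. In the endogenous group, *Clec3a*, *Clec11a*, *Fcgrt*, *Clec3b* and *Clec16a* held 94.8 to 95.4% of it. *Clec3a* alone made up on average 67.1% of the members' TPM in endogenous cells and 2.2% in MSC-derived cells, while *Fcgr3* made up 0.929% and 22.1%. A mean level of at least 10 TPM was reached by 26 members in the MSC-derived cells and by 8 in the endogenous cells. The order of the members was almost the same within the MSC-derived group (Spearman correlation at least 0.995 over the members), and it differed between groups, with correlations of 0.378 to 0.508, given as a description over genes of shared libraries.

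**Figure D1:**
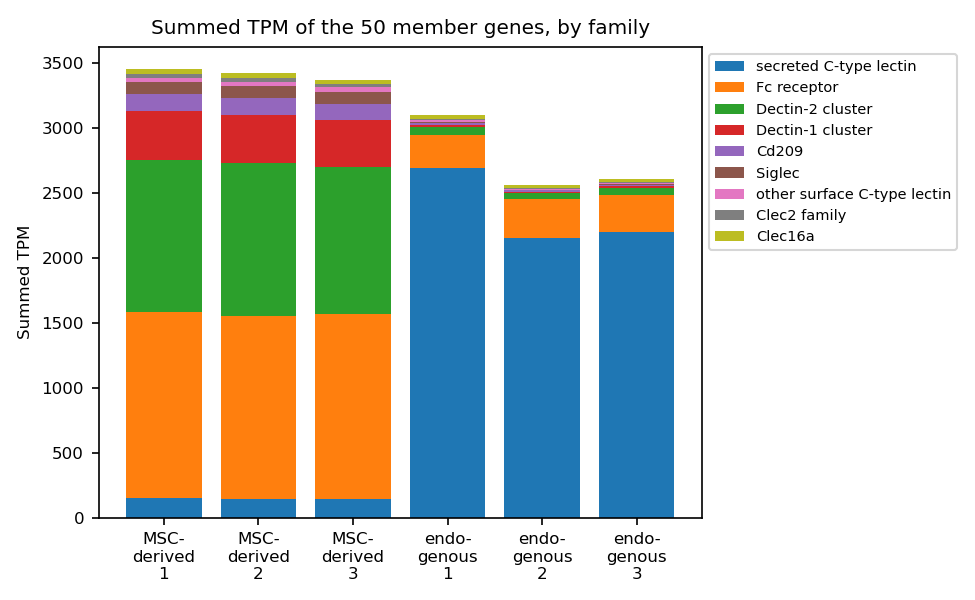
Stacked bars give the summed TPM of the 50 members in each of the 6 libraries, coloured by family. Secreted lectins fill most of the endogenous bars (2155 to 2690.1 TPM), while Fc receptors (1407 to 1436 TPM) and the Dectin-2 cluster (1133 to 1175 TPM) fill most of the MSC-derived bars.

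The largest block of members was the Dectin-2 cluster, 9 genes that follow each other on chromosome 6 (*Clec4a1*, *Clec4a3*, *Clec4a4*, *Clec4b1*, *Clec4a2*, *Clec4b2*, *Clec4n*, *Clec4d* and *Clec4e*). All 8 genes tested were higher in MSC-derived cells, and their summed level, with *Clec4a4* included, was 1133 to 1175 TPM against 46.1 to 59.3 TPM. *Clec4b1*, a member of the DCAR receptors, led the cluster with 293, 283 and 278 TPM in the MSC-derived libraries and 0.50, 0 and 1.34 TPM in the endogenous ones (log2 fold change 9.27, SE 0.42, edgeR adjusted p = 1.27e-06). The endogenous libraries were thus all near 0, and *Clec4b1* shared 8.68% of its 50-base stretches with other genes, mainly *Clec4a2*, so that a small part of its reads could be assigned to either. Its log2 fold change was 8.67 without endogenous replicate 2 and 10.80 without endogenous replicate 3. Its promoter is printed because it holds, in capitals, the sequence GAGGAA, the core of sites for PU.1, a master regulator of myeloid cells, and other ETS factors, once on each strand at -68 and -39 from the start site. The sequence is from RefSeq (GRCm38.p6), chr6:123049712-123050011, plus strand, 5′ to 3′, from 250 bases before to 50 bases after the start.
Clec4b1: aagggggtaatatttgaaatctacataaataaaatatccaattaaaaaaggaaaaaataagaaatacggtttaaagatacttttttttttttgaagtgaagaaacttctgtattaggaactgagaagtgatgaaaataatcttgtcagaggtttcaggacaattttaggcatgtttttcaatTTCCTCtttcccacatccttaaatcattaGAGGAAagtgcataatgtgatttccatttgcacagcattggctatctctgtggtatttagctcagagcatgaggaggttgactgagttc

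The DCIR receptors *Clec4a1*, *Clec4a2* and *Clec4a3* of the same cluster were expressed at like levels in MSC-derived cells. *Clec4a4* was far lower there, at 0.47 to 0.73 TPM, and was not tested. Among these genes, *Clec4a2* is an inhibitory receptor of dendritic cells and macrophages. *Clec4a2* had 229, 233 and 225 TPM in MSC-derived libraries and 10.1, 4.56 and 6.08 TPM in endogenous ones (log2 fold change 5.58, SE 0.24, edgeR adjusted p = 9.75e-07). For *Clec4a3* the levels were 210.5, 215 and 207 TPM against 0.51, 0.52 and 1.25 TPM (log2 fold change 8.48, SE 0.28, edgeR adjusted p = 2.82e-07). *Clec4a1* had 165, 174 and 159 TPM against 0.31, 0.80 and 0.56 TPM (log2 fold change 8.61, SE 0.23, edgeR adjusted p = 1.30e-07). These 3 genes lay between 159 and 233 TPM in the MSC-derived cells, whereas in the endogenous cells *Clec4a2* exceeded both others in every library. A further gene, *Clec4b2*, was low in both groups, at 1.75 to 2.44 TPM and 0 to 0.24 TPM, and was still higher in MSC-derived cells (log2 fold change 4.27, SE 0.84, edgeR adjusted p = 0.00320). Single endogenous libraries moved some of these values, to 9.20 for *Clec4a3* without replicate 3, and to 3.67 and 4.91 for *Clec4b2* without replicates 1 and 3.

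Dectin-2 (*Clec4n*), Mincle (*Clec4e*) and MCL (*Clec4d*) are activating receptors for fungal and mycobacterial glycans and glycolipids. *Clec4n* measured 53.3, 54.2 and 53.6 TPM in MSC-derived libraries and 0.26, 1.46 and 1.02 TPM in endogenous ones (log2 fold change 6.26, SE 0.42, edgeR adjusted p = 9.98e-06). *Clec4e* had 118, 124 and 113 TPM against 21.6, 17.8 and 22.0 TPM (log2 fold change 2.95, SE 0.10, edgeR adjusted p = 3.42e-07). *Clec4d* had 93.6, 90.0 and 94.8 TPM against 26.1, 20.9 and 21.3 TPM (log2 fold change 2.47, SE 0.09, edgeR adjusted p = 5.46e-07). The groups did not overlap in any of the 3 genes, which held in this direction, in CPM, for 38.2% of all genes tested. *Clec4d* and *Clec4e* had the highest endogenous levels and the smallest fold changes of the cluster. They and *Fcgr3* were the only receptors of immune cells among the 8 members with at least 10 TPM on average in endogenous cells, beside *Fcgrt*.

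The Dectin-1 cluster on chromosome 6 (*Clec12a*, *Clec12b*, *Clec1b*, *Clec9a*, *Clec1a* and *Clec7a*) summed to 363 to 382 TPM in MSC-derived libraries and 11.4 to 18.9 TPM in endogenous ones, and 3 of 5 genes tested were higher. *Clec12a*, an inhibitory receptor of granulocytes and monocytes that senses uric acid crystals, had 245, 231 and 226 TPM against 9.82, 5.55 and 8.02 TPM (log2 fold change 5.36, SE 0.17, edgeR adjusted p = 2.44e-07). Dectin-1 itself (*Clec7a*), the receptor for fungal beta-glucan, had 94.5, 103 and 98.9 TPM against 2.31, 4.22 and 7.52 TPM (log2 fold change 4.80, SE 0.40, edgeR adjusted p = 3.25e-05). *Clec1b*, the podoplanin receptor CLEC-2 best known from platelets, had 41.1, 41.1 and 37.5 TPM against 4.66, 1.57 and 0.92 TPM (log2 fold change 4.55, SE 0.47, edgeR adjusted p = 0.000102). Within the endogenous group the 3 genes differed in their order, as replicate 1 was the highest library for *Clec1b* and the lowest for *Clec7a*, and without it the log2 fold change of *Clec1b* was 5.32. Of 6 megakaryocyte markers, 1 was higher, 1 was lower and 4 passed in neither direction, and their sum was 168 to 177 TPM against 22.4 to 43.8 TPM. Most of the sum in both groups came from *Pf4* (means of 166 and 21.4 TPM), the only marker called higher. *Gp1ba* was lower (log2 fold change -1.90).

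The other 2 genes tested in this cluster were not called. *Clec9a*, by which the cross-presenting dendritic cells sense actin of dead cells, had 0.78, 0.68 and 0.75 TPM in MSC-derived libraries and 0.73, 0.05 and 0 TPM in endogenous ones (log2 fold change 2.16, SE 1.17, edgeR adjusted p = 0.148). *Clec1a*, a receptor for fungal melanin, had 0.67, 0.34 and 0.33 TPM against 1.34, 0.05 and 0.14 TPM (log2 fold change 0.36, SE 1.05, edgeR adjusted p = 0.780). It was the only member tested whose groups overlapped in CPM with the scaling of the test. In TPM the groups of *Clec9a* overlapped too, as endogenous replicate 1 (0.73) lay above MSC-derived replicate 2 (0.68). In both genes endogenous replicate 1 lay far above the other endogenous libraries, and without it the log2 fold changes were 5.10 for *Clec9a* (edgeR adjusted p = 8.45e-06) and 2.56 for *Clec1a* (edgeR adjusted p = 0.00241). Of 10 dendritic cell markers, which include the member *Cd209a*, 5 were higher, 2 were lower and 3 passed in neither direction, with a sum of 400.4 to 412 TPM against 158.8 to 168 TPM. Most of the sum in MSC-derived cells came from *Irf8* and *Bst2* (means of 180 and 169 TPM). Lower were *Zbtb46* (log2 fold change -1.70) and *Tcf4* (-1.56), and *Xcr1*, *Batf3* and *Ccr7* were not called.

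**Figure D2:**
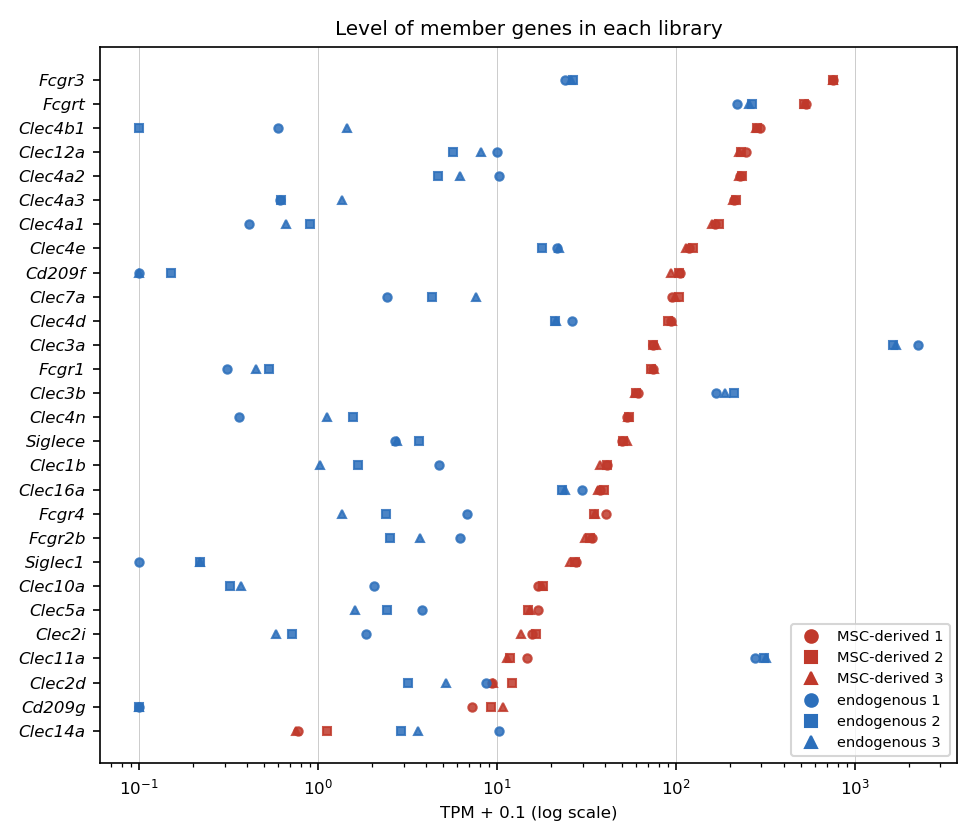
Each point is the level of a member in a single library, as TPM + 0.1 on a log axis, with members in rows and the MSC-derived and endogenous libraries in different colours. Rows show the members with a mean of at least 10 TPM in either group, those called lower and *Cd209g*. The 3 MSC-derived points of a gene lie close together, while the endogenous points scatter more widely for low genes such as *Clec10a* (0.22 to 1.95 TPM).

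The Cd209 genes, mouse relatives of the human pathogen receptor DC-SIGN, lie side by side on chromosome 8. Their sum was 117 to 126 TPM in MSC-derived cells and 6.16 to 12.5 TPM in endogenous cells, and 4 of 5 genes tested were higher. *Cd209f* made up most of the former, at 105, 104 and 93.9 TPM, and it was at 0, 0.05 and 0 TPM in endogenous libraries. This rests on 5870 counts in the MSC-derived group against 1 count in the endogenous group, a ratio of 6050 after scaling to library size (exact 95% interval 1085 to 238998, counting error only), and that count lay in endogenous replicate 2, without which *Cd209f* too was at 0. *Cd209g* had 7.16, 9.14 and 10.7 TPM and was at 0 in all 3 endogenous libraries, and was therefore at least 167-fold higher, taking the floor of 3 counts over the group. Both were called by edgeR (adjusted p = 1.15e-07 for *Cd209f*). These neighbours share sequence, with 29.8% of the 50-base stretches of *Cd209f* and 16.6% of those of *Cd209g* found in the other, so that the split of reads between them is uncertain. The promoters of both genes are printed because they are near copies, identical at 238 of 286 aligned bases (83.2%) with a shared run of 180 bases. Capitals mark the AP-1 sequence TGACTCA, here on the reverse strand, and the TATA box TATAAA, at -83 and -29 in *Cd209f* and at -97 and -43 in *Cd209g*. They are from RefSeq (GRCm38.p6), chr8:4105715-4106014, minus strand, and chr8:4134486-4134785, plus strand.
Cd209f: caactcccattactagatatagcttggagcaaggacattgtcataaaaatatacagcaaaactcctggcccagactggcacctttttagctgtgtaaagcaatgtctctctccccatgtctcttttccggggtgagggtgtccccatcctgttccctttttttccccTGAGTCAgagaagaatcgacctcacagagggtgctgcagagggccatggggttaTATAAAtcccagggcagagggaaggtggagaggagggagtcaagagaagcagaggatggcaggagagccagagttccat
Cd209g: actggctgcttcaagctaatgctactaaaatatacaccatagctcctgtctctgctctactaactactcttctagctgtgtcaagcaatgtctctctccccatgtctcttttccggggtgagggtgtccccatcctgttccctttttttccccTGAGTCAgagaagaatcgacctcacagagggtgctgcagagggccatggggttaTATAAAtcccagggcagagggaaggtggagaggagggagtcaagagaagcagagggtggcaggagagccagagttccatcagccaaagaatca

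The remaining Cd209 genes were low. *Cd209a*, a receptor of monocyte-derived dendritic cells, had 7.05 to 9.32 TPM in MSC-derived libraries and 0 to 1.30 TPM in endogenous ones (log2 fold change 4.20, SE 0.91, edgeR adjusted p = 0.00529). *Cd209d* had 0.82 to 1.04 TPM against 0 to 0.33 TPM (log2 fold change 2.98, SE 0.94, edgeR adjusted p = 0.0263), and this call was lost when any MSC-derived library or endogenous replicate 3 was left out (edgeR adjusted p between 0.0873 and 0.113). Its log2 fold change was 4.19 without endogenous replicate 2, and that of *Cd209a* was 3.58 without endogenous replicate 1 and 5.67 without endogenous replicate 2. *Cd209c* went the other way and was not called, with 2.96, 3.98 and 4.11 TPM against 12.5, 8.37 and 5.65 TPM (log2 fold change -0.80, SE 0.32, edgeR adjusted p = 0.0649). All endogenous libraries were above all MSC-derived ones for this gene, as they were, in CPM, for 34.1% of all genes tested. *Cd209c* passed the test without endogenous replicate 1 (edgeR adjusted p = 0.0328) and without endogenous replicate 3 (edgeR adjusted p = 0.0301). A share of 11.6% of its 50-base stretches is found in other genes, none of them a member.

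All 5 Fc receptor genes were higher in MSC-derived cells, with a summed level of 1407 to 1436 TPM against 255 to 297 TPM. *Fcgr3*, an activating receptor of low affinity, was the highest member in MSC-derived cells, with 757, 751 and 752 TPM against 23.9, 26.3 and 25.8 TPM (log2 fold change 5.33, SE 0.11, edgeR adjusted p = 6.15e-08). *Fcgr1*, the high-affinity receptor for IgG, had 74.2, 72.5 and 75.3 TPM against 0.21, 0.43 and 0.35 TPM (log2 fold change 8.21, SE 0.20, edgeR adjusted p = 9.80e-08). *Fcgr4*, a further activating receptor, had 40.3, 34.8 and 34.97 TPM against 6.67, 2.28 and 1.25 TPM (log2 fold change 3.93, SE 0.49, edgeR adjusted p = 0.000304). The libraries of each group agreed closely for *Fcgr3* and *Fcgr1*, whereas the endogenous libraries of *Fcgr4* were spread, replicate 1 being the highest, and without it the log2 fold change was 4.70. *Fcgr2b*, the inhibitory receptor of the family, had 33.7, 32.8 and 30.8 TPM against 6.13, 2.43 and 3.60 TPM (log2 fold change 3.46, SE 0.26, edgeR adjusted p = 1.90e-05). A share of 9.58% of the 50-base stretches of *Fcgr3* is found in other genes, mainly *Fcgr2b*. The promoter of *Fcgr1* is printed as a further example with GAGGAA, on the reverse strand at -55 (RefSeq, GRCm38.p6, chr3:96293920-96294219, minus strand).
Fcgr1: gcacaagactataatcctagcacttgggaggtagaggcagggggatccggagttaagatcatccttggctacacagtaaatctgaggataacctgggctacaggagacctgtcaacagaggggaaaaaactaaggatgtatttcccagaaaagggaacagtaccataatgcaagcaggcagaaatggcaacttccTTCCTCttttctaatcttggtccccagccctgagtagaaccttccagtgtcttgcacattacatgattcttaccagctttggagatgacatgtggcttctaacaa

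The summed TPM of the activating receptors *Fcgr1*, *Fcgr3* and *Fcgr4* was 25.9, 26.1 and 28.0 times that of *Fcgr2b* in MSC-derived libraries and 5.02, 11.9 and 7.61 times in endogenous ones, a mean ratio of 26.7 ± 1.16 against 8.19 ± 3.49 (SD, n = 3 per group). All MSC-derived ratios were higher than all endogenous ones. This ratio was chosen after the values were seen and is given as a description. An exact permutation test gave p = 0.1, the smallest value it can reach with n = 3 per group. That value was fixed once the groups did not overlap, so the test cannot decide whether the ratios differ. *Fcgr3* and *Fcgr2b* share some 50-base stretches, as given above, and the effect of this on the ratio was not tested. *Fcgrt*, which recycles IgG and albumin in many cell types, changed less than the others. It had 531, 516 and 528 TPM in MSC-derived libraries and 219, 265 and 256 TPM in endogenous ones (log2 fold change 1.52, SE 0.13, edgeR adjusted p = 2.94e-05), and it was the only Fc receptor above 100 TPM in endogenous cells.

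Siglecs summed to 93.1 to 97.4 TPM in MSC-derived libraries and 6.98 to 7.24 TPM in endogenous ones, and all 5 genes tested were higher. *Siglece*, an inhibitory receptor of neutrophils and macrophages, had 49.5, 50.4 and 53.0 TPM against 2.60, 3.57 and 2.66 TPM (log2 fold change 4.54, SE 0.20, edgeR adjusted p = 9.93e-07). *Siglec1* (sialoadhesin), an adhesion receptor of tissue macrophages, had 27.4, 27.0 and 25.4 TPM against 0, 0.12 and 0.12 TPM (log2 fold change 8.69, SE 0.41, edgeR adjusted p = 1.64e-06). These 2 genes made up most of the family's level in MSC-derived cells, and *Siglec1* was close to 0 in endogenous cells. *Siglech*, a marker of plasmacytoid dendritic cells, had 6.01 to 9.66 TPM against 1.65 to 4.29 TPM (log2 fold change 1.85, SE 0.43, edgeR adjusted p = 0.00710). *Siglecg*, known from B cells, had 4.54 to 5.87 TPM against 0.20 to 1.05 TPM (log2 fold change 3.49, SE 0.63, edgeR adjusted p = 0.00206). *Siglecf*, known from eosinophils, had 3.13 to 4.23 TPM against 0 to 0.71 TPM (log2 fold change 3.51, SE 0.91, edgeR adjusted p = 0.0116). The call of *Siglecf* was lost without MSC-derived replicate 2 (edgeR adjusted p = 0.0539), and its log2 fold change was 2.87 without endogenous replicate 1 and 4.16 without endogenous replicate 3. Likewise *Siglec1* was at 8.07 without endogenous replicate 1 and *Siglecg* at 4.28 without endogenous replicate 2. Of the B cell markers tested 5 of 7 were higher and none was lower (241.7 to 265 against 23.3 to 29.8 TPM in sum), and of the eosinophil markers 7 of 7 were higher (2340.3 to 2402 against 189 to 250.4 TPM).

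The surface lectins outside these clusters differed in direction. *Clec5a*, a Tyrobp-coupled receptor of myeloid cells, had 16.8, 14.7 and 15.2 TPM in MSC-derived libraries and 3.69, 2.33 and 1.51 TPM in endogenous ones (log2 fold change 3.10, SE 0.27, edgeR adjusted p = 4.02e-05). *Clec10a*, a galactose-type lectin of macrophages and dendritic cells, had 16.9, 18.0 and 17.7 TPM against 1.95, 0.22 and 0.27 TPM (log2 fold change 4.93, SE 0.66, edgeR adjusted p = 0.000452). Both were higher in every MSC-derived library than in any endogenous one, as were 38.2% of all genes tested, in CPM. A share of 9.02% of the 50-base stretches of *Clec10a* is found in other genes, among them its paralog *Mgl2*. *Clec14a*, a receptor of endothelial cells, was lower in MSC-derived cells, with 0.67, 1.02 and 0.65 TPM against 10.2, 2.80 and 3.52 TPM (log2 fold change -2.32, SE 0.48, edgeR adjusted p = 0.00426). Without endogenous replicate 1, the highest endogenous library for both, the log2 fold changes were 6.44 for *Clec10a* and -1.69 for *Clec14a*. In contrast to *Clec14a*, 5 of 7 endothelial markers were higher in MSC-derived cells and none was lower, with a sum of 28.2 to 31.9 TPM against 10.1 to 15.7 TPM.

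The Clec2 genes encode ligands of natural killer cell receptors and were low in both groups, with sums of 24.1 to 29.5 TPM and 5.21 to 10.4 TPM. *Clec2i* had 15.6, 16.5 and 13.5 TPM in MSC-derived libraries and 1.75, 0.61 and 0.48 TPM in endogenous ones (log2 fold change 4.55, SE 0.41, edgeR adjusted p = 5.06e-05), and 5.18 on the log2 scale without endogenous replicate 1. *Clec2d* had 9.26, 12.02 and 9.43 TPM against 8.61, 3.07 and 5.11 TPM (log2 fold change 1.33, SE 0.36, edgeR adjusted p = 0.0137). The call of *Clec2d* was lost without MSC-derived replicate 2 (edgeR adjusted p = 0.0598). Of 6 markers of T and natural killer cells tested, 5 were higher and none was lower (199 to 212 against 24.6 to 29.8 TPM in sum). Most of this sum in MSC-derived cells came from *Nkg7* and *Cd4* (means of 127 and 73.0 TPM). The natural killer cell marker *Klrb1c* was not called (log2 fold change -0.20), and *Ncr1* was too low to be tested. Among lectins with symbols outside the rule, the natural killer cell receptor genes *Klrk1* and *Klrd1* were higher (log2 fold change 5.70 and 3.19). *Klrb1b* was too low to be tested. *Clec2f* had 11, 11 and 13 counts in MSC-derived libraries and 0 counts in all endogenous ones, and was at least 12.02-fold higher. *Clec16a*, which is not a receptor but an endosomal protein that takes part in mitophagy, had 37.4, 39.2 and 36.5 TPM against 29.6, 22.8 and 23.95 TPM, the smallest difference among the members called (log2 fold change 0.88, SE 0.10, edgeR adjusted p = 0.000132).

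All 3 secreted lectins tested were lower in MSC-derived cells, and their summed level with *Clec18a* was 145.9 to 149.95 TPM against 2155 to 2690.1 TPM. *Clec3a*, a lectin first cloned from cartilage, had 73.9, 74.4 and 76.6 TPM in MSC-derived libraries and 2249, 1634 and 1693 TPM in endogenous ones (log2 fold change -4.18, SE 0.09, edgeR adjusted p = 6.88e-08). *Clec11a* (osteolectin), a secreted factor that promotes bone formation, had 14.6, 11.7 and 11.3 TPM against 274, 311 and 319 TPM (log2 fold change -4.16, SE 0.16, edgeR adjusted p = 5.81e-07). *Clec3b* (tetranectin), which binds plasminogen, had 61.5, 59.8 and 59.1 TPM against 167, 210.4 and 188 TPM (log2 fold change -1.22, SE 0.14, edgeR adjusted p = 0.000175). No library of one group overlapped with the other in these genes, which held in this direction, in CPM, for 34.1% of all genes tested. *Clec3b* differed much less than *Clec3a* and *Clec11a*. All 10 chondrocyte, 7 osteoblast and 7 fibroblast markers were also lower in MSC-derived cells, with medians of -6.44, -6.06 and -2.28 on the log2 scale. The promoter of *Clec11a* is printed as a contrast to those above, since it too holds GAGGAA, at -147 (RefSeq, GRCm38.p6, chr7:44306910-44307209, minus strand).
Clec11a: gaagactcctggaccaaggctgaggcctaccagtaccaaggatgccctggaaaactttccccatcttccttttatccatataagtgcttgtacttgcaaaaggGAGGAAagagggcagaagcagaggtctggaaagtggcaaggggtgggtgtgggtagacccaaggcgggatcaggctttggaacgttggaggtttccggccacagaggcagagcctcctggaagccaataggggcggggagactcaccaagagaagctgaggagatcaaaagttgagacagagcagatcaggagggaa

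**Figure D3:**
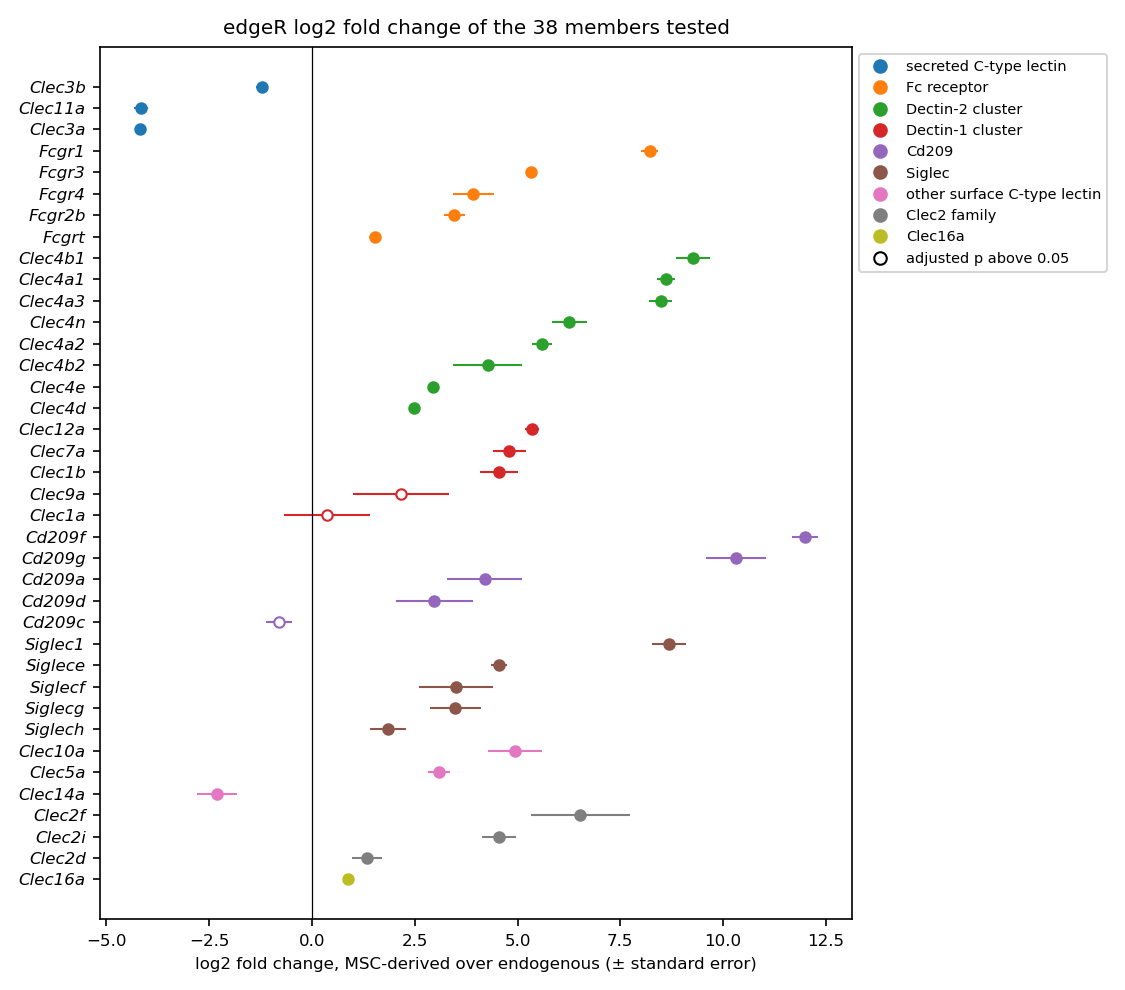
Points give the edgeR log2 fold change of the 38 members tested, MSC-derived over endogenous, with bars of 1 standard error, coloured by family, and open points mark members without a call. The secreted lectins, *Clec14a* and, without a call, *Cd209c* lie to the left of 0. At 8 or above lie 7 members (*Cd209f*, *Cd209g*, *Clec4b1*, *Siglec1*, *Clec4a1*, *Clec4a3* and *Fcgr1*). Of these, *Cd209g* has no endogenous counts, as has *Clec2f*, so that the fitted values of both depend on the prior count.

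The 12 members that were not tested had at most 24 counts in any library (*Clec2l*). Among them, *Cd209b* had 39 counts over the MSC-derived libraries and 1 over the endogenous ones (ratio 40.2, exact 95% interval 6.80 to 1628), and *Clec4a4*, known from a subset of dendritic cells, had 32 against 1 (ratio 33.0, interval 5.51 to 1343). The single endogenous count lay in replicate 2 for *Cd209b* and in replicate 3 for *Clec4a4*. *Siglecl1* had 14, 8 and 4 counts against 0, 2 and 0 (ratio 13.4, interval 3.35 to 116), so that without endogenous replicate 2 it was at 0 in that group. *Clec2m* had 9 counts in MSC-derived replicate 1, 1 count in endogenous replicate 3 and none elsewhere, and its groups overlapped. Another 4 genes were at 0 in all endogenous libraries and had few counts in the MSC-derived ones, with 1, 16 and 5 for *Clec12b*, 15, 4 and 3 for *Clec2g*, 6, 1 and 1 for *Clec4g* and 3, 2 and 1 for *Cd209e*. Most counts of the first 3 of these genes came from a single library, and no fold is given for any of the 4. The last 4 were *Clec18a*, *Clec2e*, *Clec2l* and *Siglec15*. *Clec2l* had 0, 6 and 0 counts in MSC-derived libraries and 0, 24 and 17 in endogenous ones, and *Siglec15* had 3, 5 and 1 against 0, 1 and 9, so that the groups overlapped in both. A difference in these 4 genes, of which *Siglec15* is known from osteoclasts, was not detectable at this depth, and edgeR without a filter called none of them.

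Genes through which the receptors signal were examined from lists written by hand. Of 20 activating adaptors and kinases, 18 were higher in MSC-derived cells, 1 was lower and 1 passed in neither direction, with a median log2 fold change of 4.34. Over all genes tested, 31.3% were higher and 30.3% were lower, with a median log2 fold change of 0.05. *Fcer1g*, the adaptor of the activating Fc-gamma receptors, Dectin-2 and Mincle, had 5010.3, 4890.1 and 4766 TPM in MSC-derived libraries and 98.7, 179 and 179 TPM in endogenous ones (log2 fold change 5.42, SE 0.29, edgeR adjusted p = 2.91e-06). *Tyrobp* (DAP12), the adaptor of *Clec5a*, had 5585, 5178 and 5294 TPM against 173, 274 and 249.7 TPM (log2 fold change 4.94, SE 0.22, edgeR adjusted p = 1.19e-06). Both adaptors were thus at higher levels than any member in the MSC-derived libraries. The kinase *Syk* had a mean of 74.8 TPM against 3.67 TPM, and *Card9*, which links Syk to NF-kB, 13.0 TPM against 1.25 TPM. The ubiquitin ligase *Cblb* was lower (log2 fold change -1.17), and *Bcl10*, the partner of *Card9*, was not called (log2 fold change 0.24, edgeR adjusted p = 0.0941). Of the 3 phosphatases on the inhibitory side, *Ptpn6* (204 against 9.95 TPM) and *Inpp5d* (40.4 against 2.96 TPM) were higher, and the widely expressed *Ptpn11* was lower (log2 fold change -0.50, edgeR adjusted p = 0.00220).

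Lectins and Fc receptors with symbols outside the rule gave a mixed picture. Of 23 tested, 16 were higher, 4 were lower and 3 passed in neither direction, with a median log2 fold change of 2.46. The mannose receptor *Mrc1* had 258, 265 and 264 TPM in MSC-derived libraries and 0.10, 0.64 and 1.2 TPM in endogenous ones (log2 fold change 9.03). The Siglecs *Cd33*, *Cd22* and *Mag* were higher by 4.27, 5.37 and 5.15 on the log2 scale. Lower were *Mrc2*, a collagen receptor of mesenchymal cells and the relative of *Mrc1*, by a log2 fold change of -1.84, *Pla2r1* (-3.18), *Asgr1* (-3.63) and *Thbd* (-1.66). Of these, *Asgr1* and *Pla2r1* were low in both groups. Their means were 0.07 and 0.14 TPM in MSC-derived cells and 0.79 and 1.71 TPM in endogenous cells. On the side of the ligands, 23 genes of sialic acid synthesis, transfer and removal were tested, of which 7 were higher, 7 lower and 9 passed in neither direction, with a median log2 fold change of -0.18. These counts are near the shares over all genes tested (31.3% higher and 30.3% lower) and are no result about the list. Among its genes, *St6gal1*, which adds sialic acid in the alpha-2,6 linkage, and the lysosomal sialidase *Neu1* were higher (log2 fold change 2.21 and 2.16), while *Gne*, the first enzyme of sialic acid synthesis, and *St3gal6* were lower (-1.51 and -1.89). Without endogenous replicate 1 the number of lower genes in this list was 11.

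**Figure D4:**
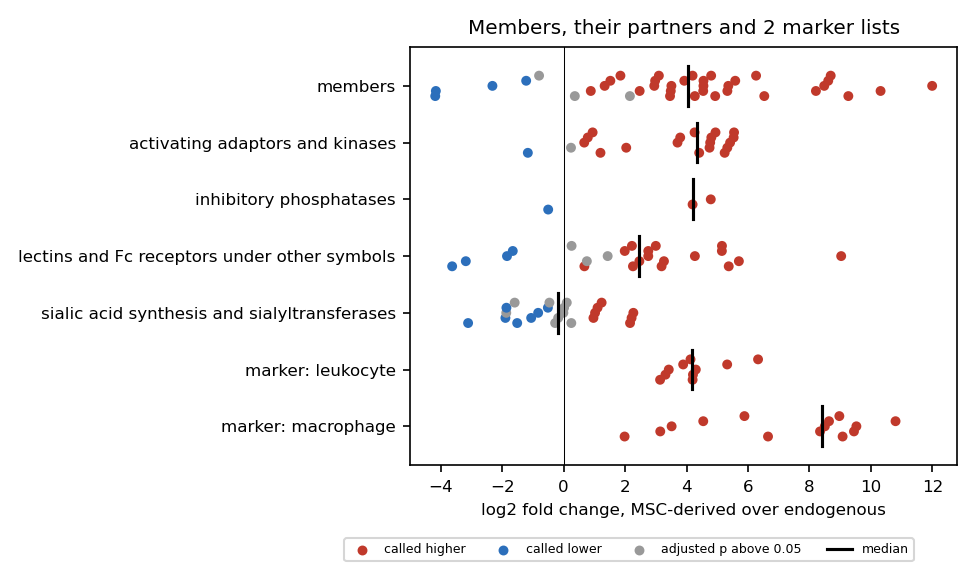
Each point is the edgeR log2 fold change of a gene tested, MSC-derived over endogenous, for the members, their partner lists and the leukocyte and macrophage marker lists, with a line at each median. The members' median (4.06) lies near that of the activating adaptors and kinases (4.34) and the leukocyte markers (4.16) and below that of the macrophage markers (8.42).

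The promoters printed above were compared with all mouse promoters in the RefSeq table, whose build, GRCm38.p6, is not the one the labels name (mm9). Of the 50 members, 40 had an entry, with 45 promoters of 300 bases in all. Among 32 promoters of members that were higher in MSC-derived cells, GAGGAA on either strand was present in 20 (62.5%), belonging to 18 of 27 genes, against 28.3% of all 32851 promoters. The C/EBP sequence TTNNGCAA was present in 28.1% against 10.8%, the motif of IRF factors in 12.5% against 3.44%, and TATAAA in 25.0% against 13.6%. TGACTCA was found in 3 promoters (9.38% against 5.2%), those of *Cd209f*, *Cd209g* and *Clec4a2*. The SOX sequence AGAACAAT was found in none of the 32, against 0.989% of all. Both promoters of lower members that had an entry, *Clec11a* and *Clec14a*, held GAGGAA as well. Each motif was searched on its own on both strands, matches of different motifs may overlap, neighbouring genes share ancestry and some genes have several promoters, so that these shares are a description and a match is not a bound site.

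**Figure D5:**
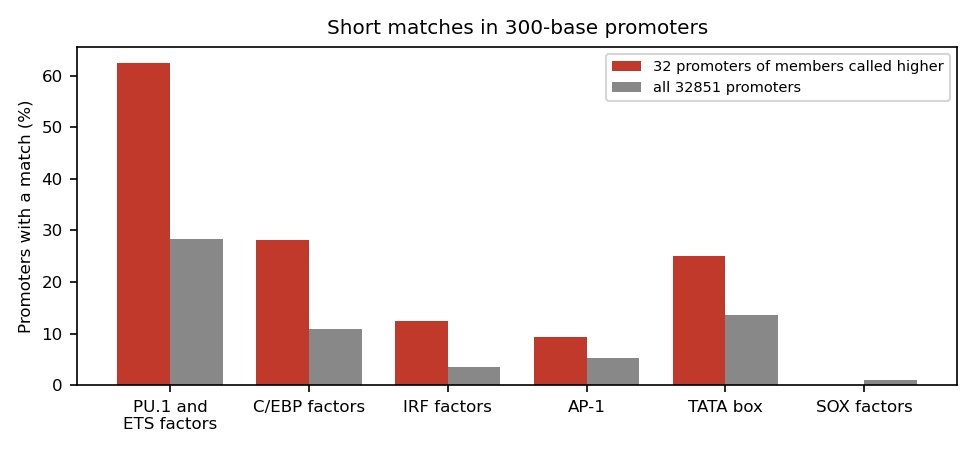
Bars give the percentage of promoters with at least 1 match to each short sequence, labelled by factor, among the 32 promoters of members higher in MSC-derived cells and among all 32851 promoters. The tallest pair is that of PU.1 and ETS factors, at 62.5% and 28.3%.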

How the data were processed

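RNA from 6 libraries, 3 per group, was analysed, with groups taken from the labels. Per the study's methods, the authors used SOAPnuke for read filtering, HISAT2 and Bowtie2 for alignment and RSEM for quantification. The labels name Bowtie2 2.2.5, RSEM 1.2.12 and build mm9. The methods name other versions of Bowtie2 and RSEM, so the versions behind the deposited table are uncertain. The deposited table holds expected counts, FPKM, TPM and a signal that is the count times 1 factor per library, all made by the authors. Expected counts were rounded, which changed 20.6% of values, and edgeR 4.0.16 (R 4.3.3) was run on them with TMM, filterByExpr, glmQLFit and glmQLFTest without a block, adjusting p by Benjamini-Hochberg over 14289 genes (threshold 0.05). Levels are TPM as deposited, which sum to the same total in every library, whereas FPKM sums differed between groups. The standard error is the size of the log2 fold change divided by the square root of F. Where the endogenous group had 0 counts, a floor of 3 counts over the group was used, and ratios of 1 to 3 counts have exact 95% intervals. Both cover counting error only. The 24 columns used were mapped by name, and 8 columns of group means were not used. Promoters came from RefSeq (GRCm38.p6), and shared 50-base stretches from GENCODE transcripts.

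The members and the lists of partners and markers were chosen with earlier results of these data known. Values in every library are given for members with a mean of at least 10 TPM in either group, for the 3 largest changes in each direction and for members that went against most others; those given for *Cd209c*, *Clec9a*, *Clec1a*, *Clec2d* and *Clec2f* were added after their values were seen. Alternatives were DESeq2 1.42.0, other scalings and filters, a replicate block, each library left out, limma 3.58.1 on log2(TPM + 1) and log2(TPM + 0.1), and a threshold of 0.001. Figures were drawn with matplotlib 3.10.9.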

Additional observations from a re-analysis of the deposited data

How the results depend on the processing

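The members called higher numbered 31 in the reported fit and 23 to 35 under the alternatives, and those called lower numbered 4 and 3 to 6; 31 of the 35 called members kept their direction and their call in all alternatives at the threshold of 0.05. The exceptions were *Cd209d* (no filter, adjusted p = 0.0622, besides the libraries named above), *Clec2d* (limma on log2(TPM + 0.1), adjusted p = 0.0507), *Clec2f* and *Siglecf*. *Cd209c* passed with DESeq2 (adjusted p = 0.0384), upper-quartile scaling (0.0424) and limma (0.0137 and 0.0139). *Clec1a*, not called, changed sign without MSC-derived replicate 1 (log2 fold change -0.043), endogenous replicate 2 (-0.17) and endogenous replicate 3 (-0.065), the cause of which was not tested, and was 2.56 without endogenous replicate 1. At a threshold of 0.001 the inhibitory phosphatases had 0 lower genes, the lectins and Fc receptors under other symbols 10 higher and 2 lower, and the sialic acid genes 4 higher. The sialic acid genes called lower ranged from 7 to 11 when single libraries were left out, and were 11 with limma at both pseudocounts. The median of all genes moved by more than 0.1 with library totals only (to 0.161) and with limma on TPM (to -0.281 and -0.343), and no called member changed direction there. Of the 12 members below the filter, edgeR without a filter called 4 and DESeq2 called 3, with no adjusted p for 5. Same-numbered libraries of the groups were not linked by the labels, and their deviations correlated by only 0.00221 to 0.0178, each highest for its own number; with a replicate block 29 members were higher and 4 lower, and the calls lost were those of *Cd209d* (adjusted p = 0.0832) and *Clec2f* (adjusted p = 0.0534). Members under about 1 TPM rest on few counts and limit what can be said of them.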

Other observations

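Endogenous replicate 1 was the highest endogenous library in 17 and the lowest in 16 of the 38 members tested (44.7% and 42.1%, against 42.8% and 47.3% of all genes tested). Compared with the mean of the other endogenous libraries in log2 CPM, it was highest above them in *Clec9a* (3.24), *Clec1a* (3.22), *Clec10a* (2.39), *Fcgr4* (1.72) and *Clec1b* (1.65). It was lowest below them in *Siglecf* (-3.43), *Cd209a* (-2.93), *Siglec1* (-2.67) and *Siglecg* (-2.05). Its Spearman correlations over the members with the other endogenous libraries were 0.889 and 0.894, against 0.959 between those and 0.995 to 0.997 between MSC-derived libraries.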
